A study of Mus musculus with 6 samples.

Results

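The genes described here are 10 immediate early and activator protein 1 (AP-1) genes in mouse skeletal muscle: Fos, Fosb, Jun, Junb, Jund, Egr1, Atf3, Ier2, Myc and Maff. They and the related lists below were chosen by symbol with earlier results of these data known. Their counts beside those of all genes are therefore descriptive. All 10 were among the 13363 genes with a deposited value. The samples were gastrocnemius muscles of Balb/c mice, 3 labelled C26 and 3 labelled Control. C26 is a mouse colon adenocarcinoma line, and the study's methods state that male mice were inoculated with it under the skin of the flank, a model of cancer cachexia in which the animals lose muscle. The control mice carried no tumor. No treatment, transgene or knockout was named for either group, and the labels give no age at collection. Values are FPKM, read abundance corrected for transcript length and library size, given to 2 decimals, and each is from a sample of gastrocnemius muscle, so the level of a gene sums over muscle fibres and all other cells. In such samples fewer cells of a type and less RNA per cell cannot be told apart.

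Immediate early genes are transcribed within minutes of a stimulus, without new protein synthesis, and their transcripts are short-lived. Many of them encode transcription factors. AP-1 is a dimer of basic leucine zipper proteins, in which a JUN protein pairs with a JUN, FOS or ATF protein. FOS proteins do not form stable dimers among themselves. The small MAF proteins, of which MAFF is one, lack a transactivation domain and act with partners such as NRF2 and BACH1. In muscle, immediate early genes are known to respond to contraction, injury and inflammatory signals.

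Of the 10 genes, Maff, Atf3, Fos, Junb and Jun were called higher in C26 muscles and 0 were called lower. A gene was called where its p in limma, with Benjamini-Hochberg adjustment over all genes, was under 0.05. The background is high in this comparison, since 19.4% of all listed genes were called higher and 14.5% lower. With a fold change above 4 also required, 4 of the 10 passed as upregulated, against 1.76% of all genes. These were Maff, Atf3, Fos and Junb. The median log2 fold change of the 10 genes was 0.93, and that of all listed genes was -0.05. Fosb, Egr1, Jund, Myc and Ier2 were not called. Fold changes here are of TPM + 1, that is, of FPKM rescaled to a sum of 1000000 per muscle and scaled by TMM factors, which understates the change of genes at low levels.

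**Figure D1:**
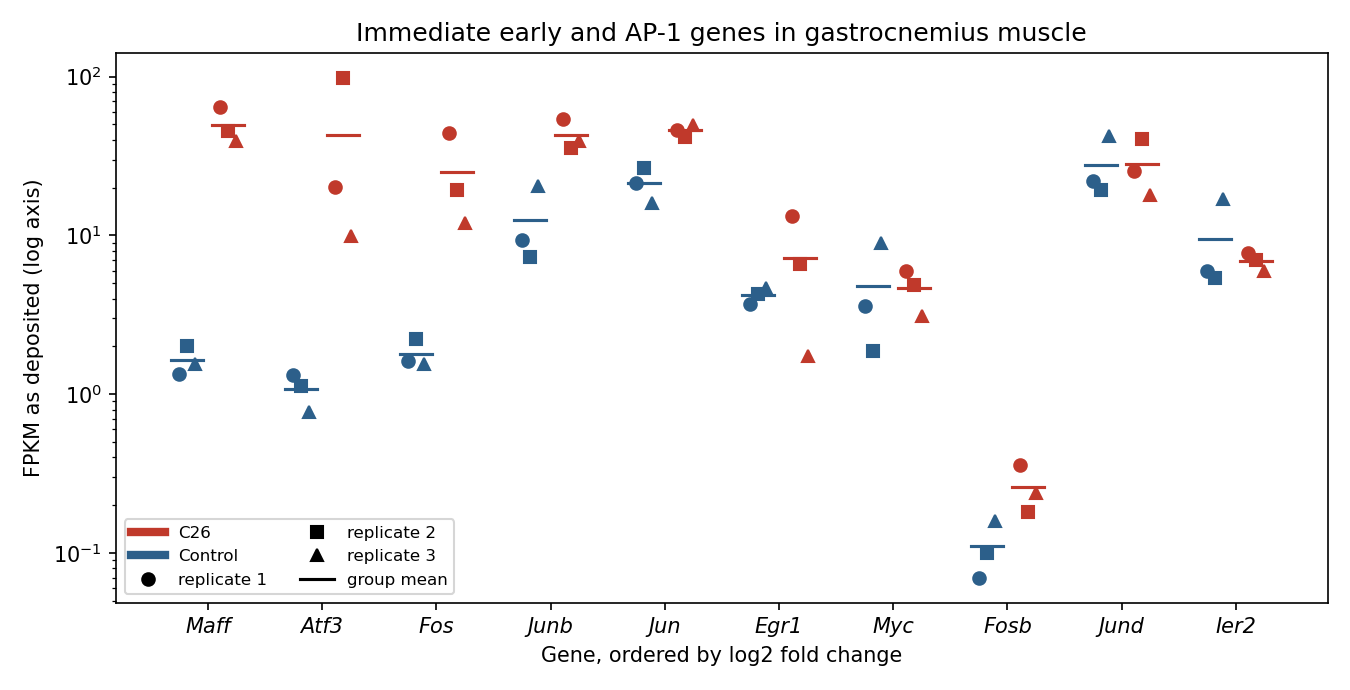
Deposited FPKM (log axis) of the 10 genes in each of the 6 muscles, with control muscles in blue, C26 muscles in red, marker shapes for the replicate and bars for the group means. The C26 points lie above the control points for Maff, Atf3, Fos, Junb, Jun and Fosb, and the groups overlap for the other 4 genes.

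Promoter sequences are shown for the 4 genes that passed the fold criterion, since these had the largest changes. The reference sequences (RefSeq, GRCm38.p6) hold windows of 300 bases, from 250 before to 50 after an annotated start, for 7 of the 10 genes, all but Egr1, Ier2 and Myc. Each is written 5′ to 3′ on the strand of its gene, and capitals mark matches on either strand to TGACGTCA (the cAMP response element) or its core TGACG, to TATAAA or to TTCNNNGAA (a STAT element). The Fos window is chr12:85473640-85473939 (plus strand), the Junb window chr8:84978699-84978998 (minus strand) and the Atf3 window chr1:191183284-191183583 (minus strand). For Maff the window chr15:79347270-79347569 (plus strand) is shown, chosen among its 3 windows because it holds the whole cAMP response element. The annotated start of the Fos window is also the GENCODE start of the gene. Those of the Atf3 and Maff windows shown lie inside the gene, 34706 and 899 bases past its GENCODE start. That of the Junb window lies 30 bases upstream of the GENCODE start, and that of the Jund window, not shown, 1210 bases upstream.
Fos: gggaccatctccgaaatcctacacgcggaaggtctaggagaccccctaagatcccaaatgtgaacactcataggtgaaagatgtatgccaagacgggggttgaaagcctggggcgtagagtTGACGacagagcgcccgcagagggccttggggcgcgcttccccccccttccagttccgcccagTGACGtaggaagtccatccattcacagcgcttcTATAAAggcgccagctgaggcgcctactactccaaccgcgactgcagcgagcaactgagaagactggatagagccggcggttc
Junb: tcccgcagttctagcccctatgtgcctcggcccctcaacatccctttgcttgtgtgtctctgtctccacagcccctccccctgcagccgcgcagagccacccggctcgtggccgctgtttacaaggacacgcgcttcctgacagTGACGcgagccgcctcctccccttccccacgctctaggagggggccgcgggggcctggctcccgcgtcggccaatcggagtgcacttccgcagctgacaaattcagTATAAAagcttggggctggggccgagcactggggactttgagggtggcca
Atf3: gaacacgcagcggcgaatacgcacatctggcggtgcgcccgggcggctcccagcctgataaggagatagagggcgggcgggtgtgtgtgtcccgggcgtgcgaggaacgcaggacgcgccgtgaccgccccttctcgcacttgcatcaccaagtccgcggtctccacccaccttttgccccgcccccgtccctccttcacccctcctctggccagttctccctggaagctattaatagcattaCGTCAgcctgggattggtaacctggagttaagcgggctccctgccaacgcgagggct
Maff: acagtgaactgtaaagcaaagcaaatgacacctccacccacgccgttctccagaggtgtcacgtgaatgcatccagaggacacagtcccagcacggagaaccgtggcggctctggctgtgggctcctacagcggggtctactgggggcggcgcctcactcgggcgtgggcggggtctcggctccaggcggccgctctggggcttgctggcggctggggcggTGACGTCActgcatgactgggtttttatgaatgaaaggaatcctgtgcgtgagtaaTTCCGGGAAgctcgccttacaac

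The core TGACG was found in 6 of the 9 windows of these 7 genes, those of Fos, Fosb, Junb and Atf3 and 2 of the 3 of Maff, and in 20.8% of 32851 mouse promoters of the same length. Counted by gene, that is 5 of 7. The 6 windows held 58.7% to 68.3% G and C, against a median of 52.7% over all promoters, and the comparison was not adjusted for this. The core stood at -129 and -66 in Fos, at -60 in Fosb and at -106 in Junb, counting its first base from the annotated start. On the opposite strand it stood at -7 in Atf3 and at -122 in a Maff window not shown. The full element TGACGTCA, which contains the core on both strands, was found in 1 of the 9 windows of these genes, at -29 in the Maff window that was chosen for it, and in 1.79% of promoters. The same window held a TTCNNNGAA match at 28, a motif present in 8.3% of promoters, and an E-box (CACGTG) at -191, present in 7.15%. TATAAA was found at -33 in Fos and in 13.6% of promoters. In Junb it stood at 1, the RefSeq start itself, which is 30 bases before the GENCODE start. A CCAAT box was found in 3 of the 9 windows, at -36 in Junb, at -65 in Jun and, on the opposite strand, at 6 in Atf3, and in 37.4% of promoters. A forkhead motif (GTAAACA) was found in 1 of the 9 windows, on the opposite strand at -135 in Junb, and in 3.65% of promoters. The AP-1 motif TGANTCA and the CArG box, the binding motif of serum response factor, were found in 0 of the 9 windows of these genes and in 7.81% and 1.63% of promoters. A match describes letters in the window and does not show that a factor was bound. Only exact matches from 250 bases before to 50 after a start were counted, and Egr1, Ier2 and Myc had no window. Finding 0 matches therefore does not show that a gene lacks such a site further away or with other letters.

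The structure of the genes, which their selection did not use, was read from the annotation. In the GENCODE annotation of GRCm38, Jun, Junb, Jund and Ier2 have a single exon in their annotated transcript, that is 4 of 10 genes, against 2.23% of the 13170 listed genes with a transcript model. The other 6 have 2 to 4 exons, and the median was 2.5 exons, against 9 over all listed genes. The median transcript length was 2050 bases, against 3000, though Egr1 (4484), Fosb (3782) and Jun (3189) were longer than that. The pentamer ATTTA, the core of AU-rich elements that mark short-lived transcripts, had a median density of 2.89 per kilobase of 3′ UTR, against 1.2 over all genes. Fos, Jun and Maff each held 4 copies and Atf3 held 3. At least 3 copies were found in 4 of the 10 genes and in 33.8% of all listed genes. The nonamer TTATTTATT was found in Fos (1 copy) and Maff (2 copies), and in 7.04% of listed genes. In GRCm38 coordinates, Fos spans chr12:85473890-85477273, Jun chr4:95049034-95052222, Junb chr8:84974484-84978718, Atf3 chr1:191170296-191218039 and Maff chr15:79346621-79359076.

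Fos, the founding FOS family member, was at 44.3, 19.3 and 12 FPKM in C26 replicates 1, 2 and 3. The control muscles had 1.61, 2.21 and 1.55 FPKM. Every C26 muscle was above every control, and C26 replicate 1 was the highest. The means were 25.2 ± 16.9 and 1.79 ± 0.36 FPKM (SD, n = 3 each), and the log2 fold change was 3.42 (SE 0.44, 95% confidence interval 2.36 to 4.48, adjusted p = 0.0047 by limma). Fosb, a paralog whose splice form ΔFosB accumulates in brain under repeated stimulation, was the least abundant of the 10. Its C26 values were 0.36, 0.18 and 0.24 FPKM, and its control values were 0.07, 0.1 and 0.16 FPKM. The C26 values lay above the control values, by a margin of 0.18 against 0.16 at the nearest. On the scale of TPM + 1 the log2 fold change of Fosb was 0.32 (95% confidence interval -0.02 to 0.67, adjusted p = 0.122 by limma). With a pseudocount of 0.1 it was 1.06 and passed the test (adjusted p = 0.0335 by limma).

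Among the JUN family genes, Junb was at 54.41, 35.58 and 39.49 FPKM in C26 muscles and at 9.4, 7.33 and 20.59 FPKM in controls. JUNB is often described as a weaker activator than JUN, and it is known to support muscle mass. The groups did not overlap, with control replicate 3 closest to the C26 muscles. The log2 fold change of Junb was 2.07 (SE 0.35, 95% confidence interval 1.23 to 2.90, adjusted p = 0.00848 by limma), a fold of 4.19. Junb missed the fold criterion of 4, while still called, with FPKM as deposited (log2 fold change 1.82) and with quantile normalization (1.73). It also missed it without C26 replicate 1 (1.90), without control replicate 1 (1.92) and without control replicate 2 (1.84), and 3 of the 10 genes then passed. Jun, the main partner of FOS, was at 46.36, 41.87 and 49.29 FPKM in C26 muscles and at 21.46, 26.59 and 15.91 FPKM in controls. All C26 values of Jun were above all control values, with a smaller difference than for Junb. The log2 fold change of Jun was 1.32 (SE 0.26, 95% confidence interval 0.70 to 1.94, adjusted p = 0.0124 by limma). Without C26 replicate 1 or without control replicate 1, Jun kept its direction and its adjusted p by limma was 0.0516 or 0.051.

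Jund, the JUN family gene that most tissues transcribe without a stimulus, was at 25.48, 40.52 and 17.87 FPKM in C26 muscles and at 21.87, 19.41 and 42.06 FPKM in controls. The groups overlapped, and the highest values were in C26 replicate 2 and control replicate 3. Its log2 fold change of 0.23 had a 95% confidence interval from -0.60 to 1.05 (adjusted p = 0.627 by limma). The exon of Jund overlaps the gene Gm11175 on the opposite strand, that of Jun overlaps Junos, and another transcript of the Junb locus overlaps Prdx2. The sources used here do not state whether the counting used strand, so reads of these pairs may not have been kept apart. Prdx2 was at 79.48, 75.84 and 107.03 FPKM in C26 muscles and at 106.08, 108.14 and 100.32 FPKM in controls. The part of reads from these overlapping genes in the values of Jun, Junb and Jund was not tested.

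Atf3, a stress-induced factor of the ATF/CREB family that pairs with JUN proteins, was at 20.05, 97.98 and 9.93 FPKM in C26 muscles. The controls had 1.33, 1.13 and 0.77 FPKM. The groups were far apart, but the C26 values differed among themselves, with C26 replicate 2 the highest. Atf3 had a log2 fold change of 4.23 (SE 0.74, 95% confidence interval 2.46 to 6.01, adjusted p = 0.00923 by limma). It was called with each muscle left out in turn, with log2 fold changes from 3.34 to 4.98. In C26 replicate 2 the monocyte and macrophage marker Cd68, named after its values were seen, was also highest, at 246.65 FPKM, against 34.85 and 6.46 in the other C26 muscles and 1.75 to 5.77 in controls. The summed FPKM of the 10 macrophage markers was 119.6, 316 and 54.02 in C26 muscles and 59.49 to 244.6 in controls, and 0 of the 10 were called by limma, with 3 at an unadjusted p under 0.05. Without C26 replicate 3, 2 of them were called higher, and with quantile normalization 1. Most of the sum in C26 replicate 2 was Cd68, and the other 9 markers summed to 84.78, 69.35 and 47.56 FPKM in C26 muscles and to 105.9, 57.74 and 238.8 FPKM in controls. Without Cd68 this muscle was therefore not the highest. The macrophage marker Adgre1 was at 0.12 to 0.5 FPKM in all muscles. The part of such cells in the Atf3 values was not tested.

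Maff, a small MAF gene, had the largest log2 fold change of the 10 with all muscles included, although the confidence interval of Atf3 covered that of Maff. Without C26 replicate 3 Atf3 was at 4.98 and Maff at 4.85. It was at 64.7, 45.71 and 39.33 FPKM in C26 muscles and at 1.34, 2.02 and 1.56 FPKM in controls. The spread within each group was small beside the gap between them. The means were 49.9 ± 13.2 and 1.64 ± 0.35 FPKM (SD, n = 3 each). The log2 fold change was 4.66 (SE 0.23, 95% confidence interval 4.10 to 5.22, adjusted p = 0.000822 by limma), a fold of 25.2, at percentile 99.96 of all listed genes. Leaving out each muscle in turn moved the log2 fold change of Maff between 4.46 and 4.85, and it was called each time.

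Egr1, a zinc finger factor induced by growth factors through ERK and serum response factor, was at 13.28, 6.57 and 1.73 FPKM in C26 muscles. The controls had 3.72, 4.27 and 4.68 FPKM. C26 replicates 1 and 2 were above all controls and C26 replicate 3 was below them. The log2 fold change of Egr1 was 0.54 (95% confidence interval -0.88 to 1.96, adjusted p = 0.499 by limma). Without C26 replicate 3 it was 1.29 and passed the test (adjusted p = 0.0281 by limma), and without C26 replicate 1 it was -0.05. Ier2, a small gene of the early growth factor response, was at 7.69, 7 and 5.97 FPKM in C26 muscles and at 5.99, 5.39 and 16.98 FPKM in controls. Control replicate 3 was far above the rest. The log2 fold change of Ier2 was -0.05 (95% confidence interval -0.95 to 0.85, adjusted p = 0.929 by limma). Without control replicate 3 it was 0.40 (adjusted p = 0.0824 by limma). Myc, which encodes a growth-promoting factor that binds DNA with MAX, was at 5.95, 4.85 and 3.11 FPKM in C26 muscles and at 3.59, 1.88 and 8.95 FPKM in controls. The groups overlapped, again with control replicate 3 the highest. The log2 fold change of Myc was 0.33 (95% confidence interval -0.74 to 1.41, adjusted p = 0.584 by limma), and without control replicate 3 it was 0.81 (adjusted p = 0.0836 by limma).

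**Figure D2:**
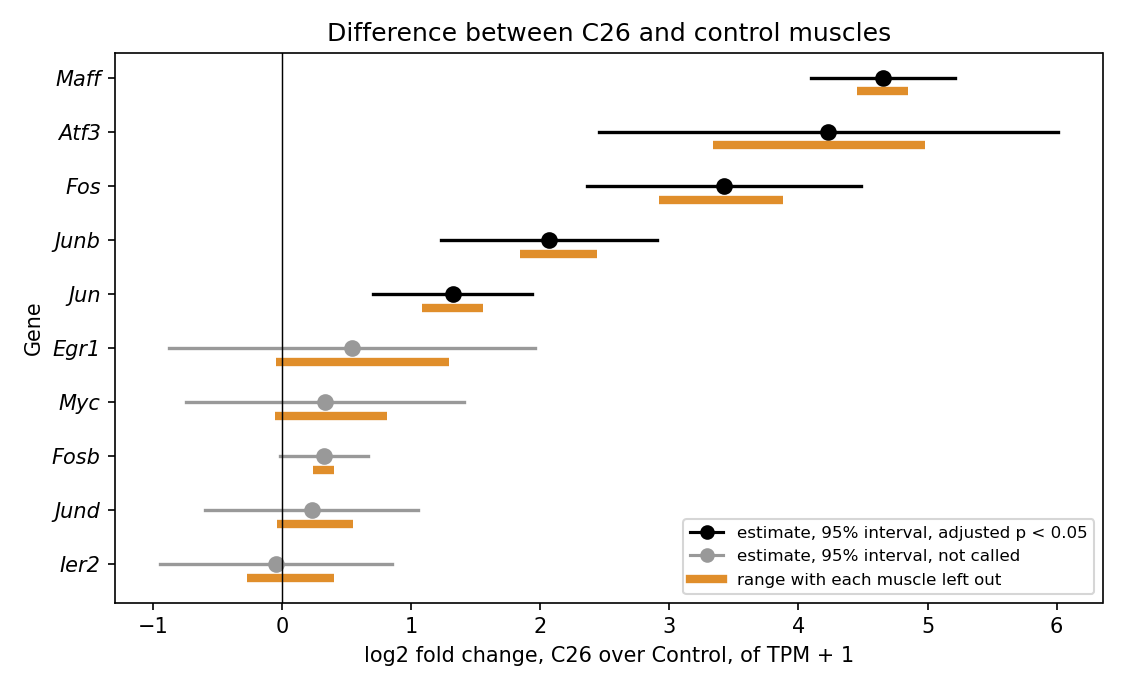
Log2 fold changes of the 10 genes between C26 and control muscles (points, of TPM + 1) with 95% confidence intervals (black where adjusted p was under 0.05, grey otherwise) and, in orange, the range with each muscle left out in turn. The intervals of Maff, Atf3, Fos, Junb and Jun lie above 0, and the orange ranges of Egr1, Ier2, Jund and Myc cross 0.

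Groups that do not overlap were common in this comparison. The C26 values lay above all control values for 6 of the 10 genes and for 27% of all listed genes, and below them for 0 of the 10 and for 26.5% of all genes, so 53.5% of all genes had groups that did not overlap.

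The order of the genes by level differed between the groups. Per transcript (mean TPM after scaling), the controls were led by Jund at 42.1, Jun at 33.4, Junb at 18.7 and Ier2 at 14.2, followed by Myc at 7.16 and Egr1 at 6.52. Fos (2.80), Maff (2.56), Atf3 (1.67) and Fosb (0.17) came last. In control muscles the ranges of neighbours in this order did not overlap between Egr1 and Fos, between Maff and Atf3 and between Atf3 and Fosb, and overlapped for the rest. In C26 muscles Maff was highest at 89.1 TPM, followed by Jun at 82.4, Junb at 77.4, Atf3 at 74, Jund at 49.4 and Fos at 44.7. The neighbours among these genes overlapped in range. Egr1 (12.7 TPM), Ier2 (12.3), Myc (8.24) and Fosb (0.47) followed, and the ranges of Ier2 and Myc and of Myc and Fosb did not overlap.

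The 5 FOS and JUN family genes among the 10 were summed to compare their transcripts with each other. Fosl2, a FOS family gene that is not among the 10, was left out of the sum. Its mean was 11.2 TPM in C26 muscles and 4.46 in controls, against 44.7 and 2.80 for Fos. The shares are therefore of these 5 genes only and not of all AP-1 transcripts. The summed TPM of the 5 genes was 302.7, 235.3 and 225.1 in C26 muscles and 81.46, 94.2 and 115.9 in controls. Each C26 sum was above each control sum, and a two-sided exact permutation test gave p = 0.1, the smallest p that 3 muscles against 3 allow. The share of Fos in this sum was 25.9%, 14.04% and 10.09% in C26 muscles and 2.96%, 3.97% and 1.93% in controls. Junb took 31.8%, 25.9% and 33.2% in C26 muscles and 17.3%, 13.2% and 25.7% in controls. The share of Jund was lower in C26 muscles, with 14.9%, 29.48% and 15.03% in C26 muscles and 40.2%, 34.9% and 52.4% in controls. Its level was not lower, with a mean of 49.4 TPM in C26 muscles and 42.1 in controls, so the lower share came with the higher levels of Fos, Jun and Junb in the same sum. The mean share was 13.7 percentage points higher for Fos, 11.6 higher for Junb and -22.7 for Jund (C26 minus control). Without C26 replicate 1 the difference was 9.11 for Fos. None of these shares overlapped between the groups, though for Junb the lowest C26 share was 25.89% and the highest control share 25.65% (exact permutation test, p = 0.1 each, the smallest possible). The share of Jun was 33.0% ± 7.5 in C26 muscles and 35.7% ± 14.4 in controls (SD, n = 3 each, exact permutation test, p = 0.9). Fosb took 0.18% and 0.17% (exact permutation test, p = 0.5).

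**Figure D3:**
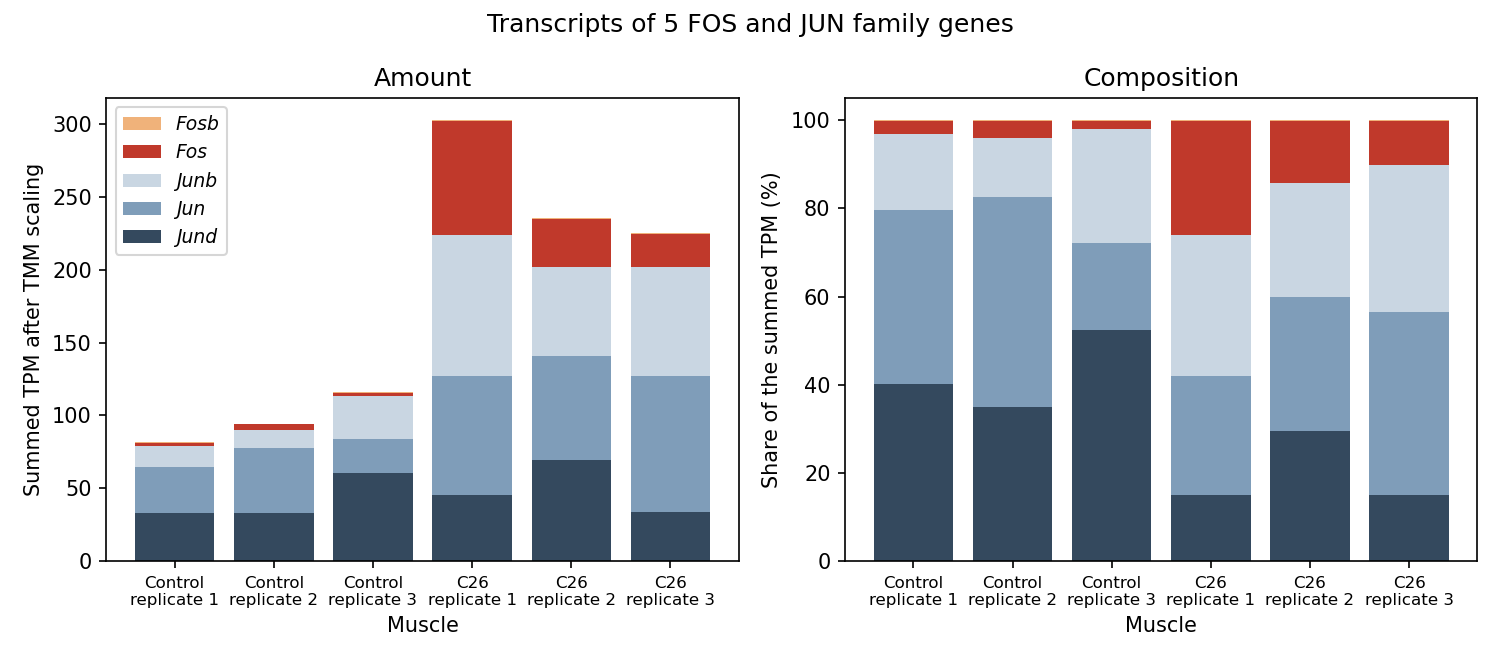
Summed TPM of Fos, Fosb, Jun, Junb and Jund in each muscle (left, stacked bars from 0) and the share of each gene in that sum in percent (right). The C26 sums lie between 225.1 and 302.7 TPM and the control sums between 81.46 and 115.9, and Jund takes 34.9% to 52.4% in controls and 14.9% to 29.5% in C26 muscles.

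The spread between muscles of a group differed from gene to gene. In C26 muscles the SD of the log2 values was 1.59 for Atf3, 1.27 for Egr1 and 0.90 for Fos, which stood at percentiles 99.64, 99.15 and 97.43 of all listed genes. In controls the SD of Egr1 was 0.17 and that of Fos 0.30. Ier2 had the reverse, with an SD of 0.13 in C26 muscles and 0.78 in controls, where it stood at percentile 94.13. The controls also spread widely for Myc (SD 0.88) and Junb (SD 0.65). Among C26 muscles, replicate 1 was the highest for 7 of the 10 genes and replicate 3 the lowest for 7. Control replicate 3 was the highest control for 5 genes, Fosb, Junb, Jund, Ier2 and Myc. Lymphocyte markers were also highest in that muscle. The 3 listed genes of 10 B and T cell markers summed to 185.1 FPKM in it and to between 0.3 and 1.31 in the other muscles, and Cd79b, likewise named after its values were seen, was at 134.43. None of the 3 was called, and the part of such cells in the values of these 5 genes was not tested. Leaving this muscle out gave a log2 fold change of 0.52 for Jund (adjusted p = 0.236 by limma).

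For the 3 genes with the largest changes, the listed genes with the most similar profile were found as those with the smallest root mean square difference of centred log2 values over the 6 muscles. These profiles share the muscles and their scaling. Nearest to Maff were Trim63 (difference 0.175) and Fbxo32 (0.258), both muscle ubiquitin ligase genes, and Retreg1 (0.215), an endoplasmic reticulum autophagy receptor gene. Trim63 was at 4230.09, 3229.62 and 2615.94 FPKM in C26 muscles and at 131.11, 147.4 and 108.95 in controls, in the same order of C26 muscles as Maff. Nearest to Atf3 were Mustn1 (0.195), a small nuclear protein gene of muscle and bone, Flnc (0.392), which encodes the muscle filamin, and Tnfrsf12a (0.403), the receptor of TWEAK. Mustn1 was at 832.92, 3452.77 and 283.9 FPKM in C26 muscles and at 64.54, 47.27 and 46.99 in controls, so that C26 replicate 2 was highest for it too. Nearest to Fos were Ranbp9 (0.179), Acot2 (0.286), a mitochondrial thioesterase gene, and Tfdp2 (0.366), a partner of E2F factors. Ranbp9 was at 217.51, 142.1 and 76.93 FPKM in C26 muscles and at 13.63, 14.36 and 12.4 in controls.

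**Figure D4:**
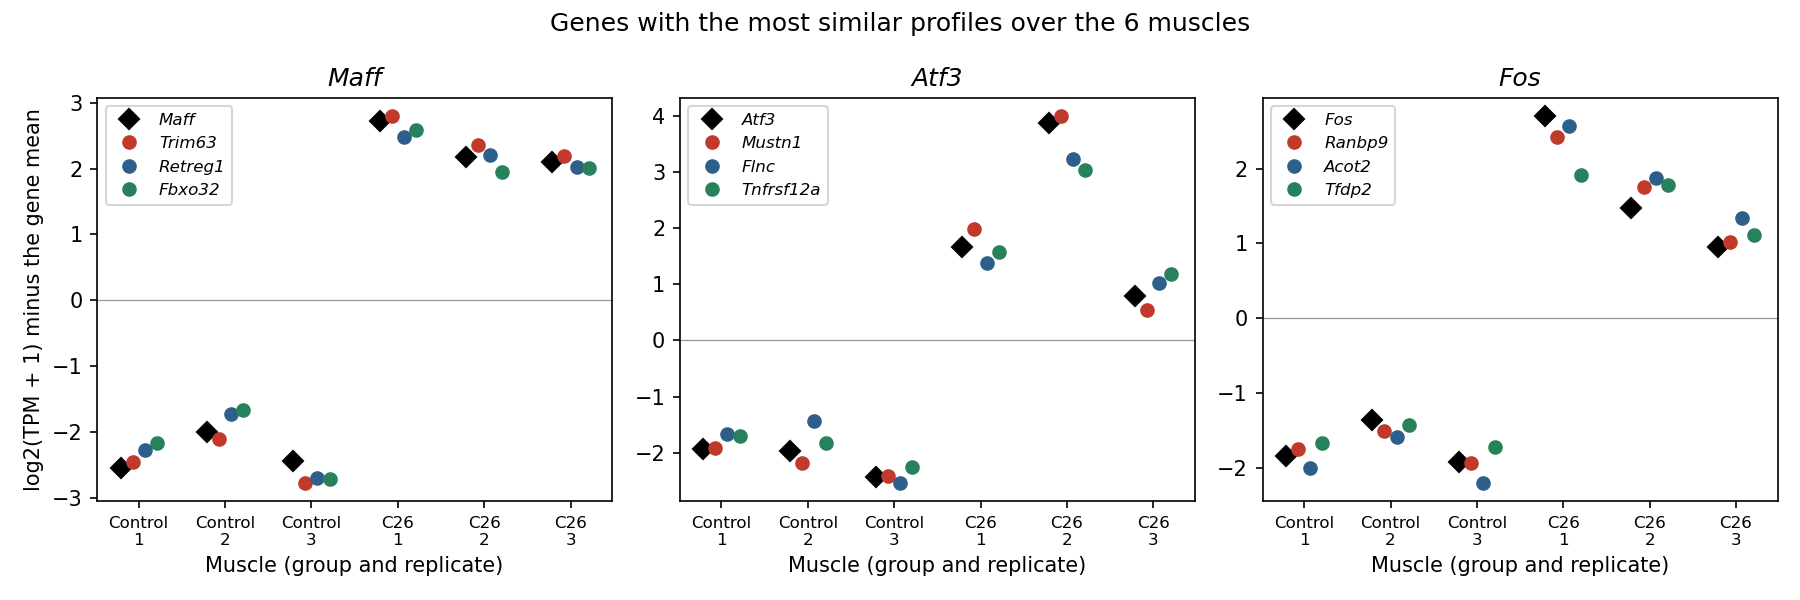
Log2(TPM + 1) minus the gene's mean over the 6 muscles, for Maff, Atf3 and Fos (black diamonds) and the 3 genes nearest to each (coloured points). Atf3 and its neighbours are highest in C26 replicate 2, and Maff and Fos with their neighbours in C26 replicate 1.

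Related gene lists were examined in the same way. Their counts stand beside the 19.4% of all listed genes called higher and the 14.5% called lower. Of 13 other AP-1 and basic leucine zipper genes, 8 were listed, 4 were higher and 1 was lower. Mafk, a second small MAF gene, rose from 6.45, 5.57 and 8.23 FPKM in controls to 47.49, 37.74 and 50.1 in C26 muscles, a log2 fold change of 2.85. Mafg, the third small MAF gene, had a log2 fold change of 1.17, Fosl2, which encodes FRA2, 1.09, and Atf2 0.59. Maf, a large MAF gene with a transactivation domain, fell from 49.73, 39.69 and 37.75 FPKM to 8.85, 8.53 and 8.51 (log2 fold change -2.0). All 3 small MAF genes were thus higher in C26 muscles, and each of the calls of Mafk, Mafg and Maf held with every muscle left out in turn. Fosl2 was lost in 5 and Atf2 in 4 of those 6 fits, and with FPKM as deposited 2 genes of the list were higher. Of the genes of MAFF partner proteins, 4 of 6 were listed and 2 were higher. These were Bach1, a repressor of heme oxygenase, with a log2 fold change of 1.97, and Nfe2l2, the NRF2 gene, with 0.96. The call of Nfe2l2 was lost in 2 of those fits and that of Bach1 in 0.

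Of 29 other immediate early genes, 28 were listed, 12 were higher and 1 was lower, with a median log2 fold change of 0.55. Sik1, a kinase gene induced by cAMP, rose from 2.4, 2.06 and 2.87 FPKM in controls to 39.31, 36.18 and 22.82 in C26 muscles (log2 fold change 3.62). The antiproliferative gene Btg2 (2.77) and the orphan nuclear receptor gene Nr4a3 (2.75) came next in log2 fold change. Ppp1r15a, which encodes the GADD34 subunit that reverses eIF2α phosphorylation, was at 10.12 to 11.72 FPKM in controls and at 56.75 to 66.62 in C26 muscles (log2 fold change 2.59). Zfp36, whose product binds AU-rich elements and speeds mRNA decay, had a log2 fold change of 2.02. With each of the 6 muscles omitted in turn, the call of Zfp36 was lost 2 times and the other 4 calls were kept. The lower gene, Fhl2 (log2 fold change -0.86), was named after its values were seen, and it was at 0.17 to 0.34 FPKM in C26 muscles and at 0.79 to 1.3 in controls. This call was lost with quantile normalization, without C26 replicate 1 and without control replicate 1, which left 0 lower genes in the list. The remaining 15 genes of this list did not pass the test.

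Of 28 listed MAP kinase pathway genes, which act upstream of these factors, 5 were higher (17.9%) and 4 lower (14.3%), with a median log2 fold change of -0.13. These shares are near the 19.4% and 14.5% of all listed genes. Map2k6, which encodes a kinase of p38, fell from 14.15, 12.35 and 12.72 FPKM to 0.76, 1.09 and 2.09 (log2 fold change -2.71). Rps6ka1 (-1.48), an ERK-activated kinase gene, and Hras (-1.04) also fell, while Mapkapk2 (0.96), a p38 substrate gene, and Araf (0.88) rose. With a muscle omitted, the call of Araf was lost in 5 of 6 fits, that of Mapkapk2 in 4 and that of Rps6ka1 in 2, and those of Map2k6 and Hras in 0. With FPKM as deposited, 2 genes of the list were higher and 7 lower, so the balance of this list, like that of all genes, depended on the scaling. Over all genes that setting gave 1678 higher and 2504 lower, against 2589 and 1932. Without C26 replicate 1 or without control replicate 1 the list had 0 higher and 2 lower. The MAP kinase phosphatases, which switch these kinases off, were all listed, and 5 of 11 were higher and 2 lower. Without control replicate 1, 3 were higher. Dusp26 was at 3.97 to 5.84 FPKM in controls and 31.68 to 52.14 in C26 muscles (log2 fold change 3.14). Dusp10, which acts on p38 and JNK, fell from 24.8, 21.21 and 26.38 FPKM to 3.17, 3.22 and 4.26 (log2 fold change -2.38). Dusp7 (1.42) and Dusp8 (1.16) rose and Dusp6 (-1.21), an ERK phosphatase gene, fell. Among the 5 named, Dusp8 alone lost its call when a muscle was omitted, in 1 of 6 fits.

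Of 16 genes for serum response factor, its ternary complex and coactivator partners and CREB factors, 5 were higher and 2 lower. These shares are 31.2% and 12.5%, against 19.4% and 14.5% of all listed genes, so the lower share was not above that of all genes. Without C26 replicate 1, C26 replicate 2 or control replicate 1, 3 were higher and 1 lower, and without C26 replicate 3, 7 were higher and 1 lower. Mrtfa, the actin-regulated coactivator of serum response factor, was at 7.1 to 8.59 FPKM in controls and at 1.06 to 1.83 in C26 muscles (log2 fold change -1.95). Atf1 (1.56), Elk4 (1.42) and the CREB coactivator genes Crtc2 (1.24) and Crtc3 (1.14) rose, and the call of Crtc2 was lost in 3 of 6 fits with a muscle omitted. In the MYC and MAX network 10 of 13 genes were listed, 5 were higher (50%) and 1 lower (10%). Mnt, a repressor that competes with MYC for MAX, had a log2 fold change of 1.26, Mlx 0.85, Mga 0.79, Max 0.75 and Mlxipl -0.69. Of these, the call of Mnt held in all 6 fits with a muscle left out, and the other 4 were each lost in 3 to 5. Quantile normalization left 2 genes of this network higher, and omitting C26 replicate 1, C26 replicate 2 or control replicate 1 left 1. Over the 7 lists, counting each gene once, 37 of 103 listed genes were higher and 11 lower, against the 19.4% and 14.5% of all genes given above. Without C26 replicate 1 or control replicate 1 these counts were 19 and 6, and without C26 replicate 2 the count of higher genes was 23. The counts over all listed genes, 2589 higher and 1932 lower with all muscles, fell too. They were 1127 and 669 without C26 replicate 1 and 1151 and 726 without control replicate 1. Without C26 replicate 2, 1528 were higher.

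**Figure D5:**
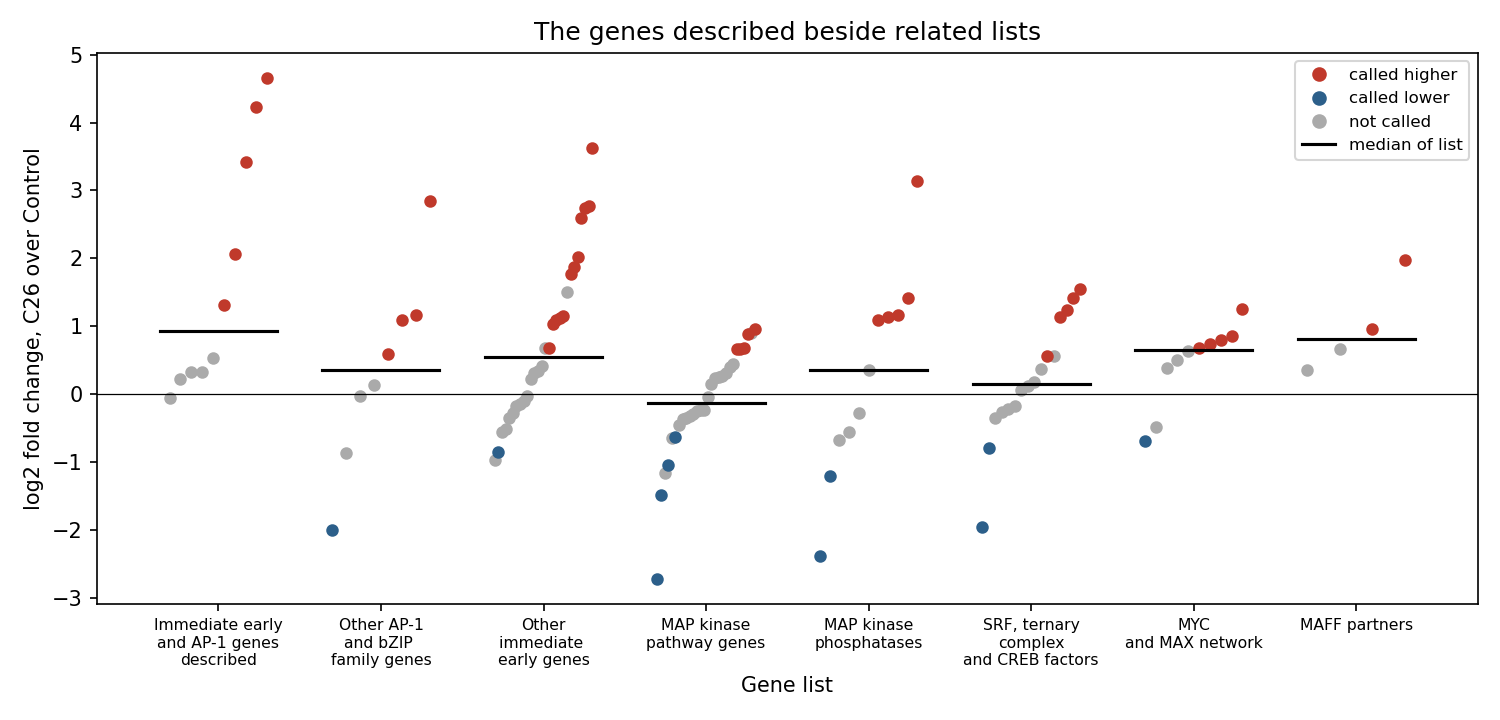
Log2 fold changes between C26 and control muscles of the 10 genes described and of 7 related lists, 1 point per gene, red where called higher, blue where called lower and grey where not called, with the list's median as a black bar. The medians lie at 0.93 for the 10 genes and between -0.13 (MAP kinase pathway) and 0.81 (MAFF partners) for the related lists.

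Markers of the tissue and of other cells were read beside these genes. Acta1, which encodes skeletal muscle actin, was at 10781 to 19513 FPKM in C26 muscles and 25506 to 27269 in controls. After scaling its groups overlapped and it was not called (log2 fold change -0.70, adjusted p = 0.0842 by limma). Of 10 muscle fibre markers 3 were lower in C26 muscles, Pvalb (log2 fold change -2.59), Mylpf (-1.95) and Tnnc2 (-1.38). This list had 7 lower with FPKM as deposited, 2 higher with quantile normalization, and 0 lower without C26 replicate 1 or control replicate 1. Of 10 fibroblast markers 8 were lower, with Col3a1 at -3.63 and Col1a1 at -2.97, and of 10 adipocyte markers 7 were lower, with Scd1 at -6.86. Omitting 1 muscle at a time left between 4 and 8 fibroblast markers lower, and between 1 and 10 adipocyte markers. The endothelial markers had 3 of 10 lower, namely Kdr (-0.83), Eng (-0.62) and Emcn (-0.50), and each of these calls was lost in 4 or 5 of 6 fits with a muscle omitted. Without control replicate 3, 5 endothelial markers were lower, and with any other single muscle omitted 0 or 1. Of the neutrophil markers, 4 of 10 were listed and 2 were higher, S100a8 (log2 fold change 1.92) and S100a9 (1.86), and these 4 summed to 6.68 to 7.25 FPKM in C26 muscles and 0.85 to 2.89 in controls. The B and T cell markers had 0 called by limma and 0 at an unadjusted p under 0.05, and the macrophage markers are given with Atf3 above. The part of these cells in the values of the 10 genes was not tested.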

How the data were processed

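The deposited FPKM were made by the authors, whose methods name bowtie2 and RSEM with GRCm38.p5. The submitters' processing notes name Bowtie2 2.2.5, RSEM 1.2.12, HISAT2 2.0.4 and the build mm9, so the build is uncertain. Reads that fit paralogs could be split by RSEM. Read counts were not analysed here, so depth and counting error are unknown, and the spread between the 3 samples of a group gives the precision. The labels number the replicates and do not say that each came from a separate mouse, which is assumed here. The p-values measure only the spread between these samples, which may be technical.

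Symbols were matched to 13327 Entrez IDs and not to 36. FPKM were rescaled to TPM (sum 1000000), scaled by TMM factors (trimming 30% of log ratios and 5% of levels), and log2-transformed after adding 1. FPKM summed to between 531061 and 688300 per muscle and the TMM factors lay between 0.903 and 1.08. Groups were compared with limma 3.58.1 (R 4.3.3), with Benjamini-Hochberg adjustment over all 13363 genes. On simulated data of 13363 genes with 200 changed, 177 were recovered with 4 false calls. The changed genes were all above a set level, changed at least 4-fold, had normal noise and were fewer than the genes called here. The simulation therefore does not cover smaller changes, such as that of Jun, or genes at low levels, such as Fosb. Shares were compared with exact permutation tests. The 10 genes and the lists were chosen with earlier results of these data known. Named were all 10 genes, up to 5 called genes with the largest changes per list, genes that check a label or are at the lowest level, and the 3 nearest profiles of the 3 genes with the largest changes. Figures were drawn with Python 3.11.15 and matplotlib 3.10.9.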

Additional observations from a re-analysis of the deposited data

How the results depend on the processing

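The settings tried were another pseudocount (0.1), a minimum mean TPM of 1, TPM with no TMM step, unscaled FPKM, quantile normalization, a replicate block, a trended prior in limma and each muscle left out. Leaving out C26 replicate 2 and control replicate 3 together was added after the data were seen. Maff, Atf3, Fos and Junb were called in all of these. Fosb was called with a pseudocount of 0.1 (log2 fold change 1.06) and with quantile normalization (0.55), and the filter dropped it. Jund was at -0.16 with quantile normalization, and Ier2 at 0.42 without both muscles. The cause was not tested. Leaving out each muscle in turn gave log2 fold changes of 1.09 to 1.56 for Jun, -0.044 to 0.55 for Jund, -0.049 to 1.29 for Egr1, -0.28 to 0.40 for Ier2 and -0.059 to 0.81 for Myc, differences in share of -0.0084 to 0.037 percentage points for Fosb and -10.6 to 3.38 for Jun, and 19 to 40 higher and 6 to 11 lower genes over the related lists. Over all genes it gave 1127 to 3311 higher and 669 to 2160 lower. FPKM as deposited gave 1678 higher and 2504 lower genes, against 2589 and 1932, with a median log2 fold change of -0.15, and the 10 genes still had 5 higher and 0 lower. Same-numbered muscles had correlations of -0.039, -0.084 and -0.112 in their deviations from the group means. The highest of all 9 correlations, 0.125, joined C26 replicate 3 and control replicate 2. Deviations from a mean of 3 muscles constrain each other, so these values cannot decide whether the numbers pair the samples. The labels do not say. With the replicate block, 5 of the 10 genes were higher and 0 lower, and 1839 genes were higher and 1235 lower over all genes.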
